A study of Homo sapiens with 2 samples.

Results

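The circular RNAs (circRNAs) described here come from genes named ZNF and a number, the largest group of human genes that encode zinc finger proteins. They were chosen by name alone, as every entry of the deposited table with a host gene name of that form. This gave 25 circRNAs from 17 host genes, out of 1485 circRNAs in all. The table comes from SW620, a line of human colorectal cancer cells, in 2 libraries. In 1 library the cells had been given an extract labelled Hedyotis diffusa-Sculellaria barbata (HD-SB), a pair of medicinal herbs, at 1 mg/mL for 24 h. The other library is labelled Control, and the labels do not say what those cells received. RNA of both was depleted of ribosomal RNA and digested with RNase R, an exonuclease that degrades linear RNA and leaves circles.

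Values are back-splice reads, the reads that cross the junction where the end of a circle joins its start. The HD-SB library held 11570 such reads on 1475 circRNAs, and the control held 91 on 32. A circRNA was listed in a library only with 2 reads or more. Each group had 1 library, so no value has a replicate error and no difference was tested as an effect of HD-SB. Intervals are 95% ones, exact binomial (Clopper-Pearson) for shares, exact given the sum of reads for ratios, and from order statistics for medians. They describe counting error alone and take reads as independent. Reads copied by PCR are not separate molecules, so the intervals may be too narrow even for that. In bulk RNA, fewer cells with a transcript and less of it per cell cannot be told apart. Of 12 genes listed as markers of colorectal epithelium, 2 gave circRNAs, VIL1 (villin) and EPCAM, with 38 HD-SB reads on 4 circRNAs. Marker lists of fibroblasts (6 genes), leukocytes (6) and endothelium (4) gave 0 reads. With 3 reads taken as the most that a count of 0 allows, here and below, each could hold up to 0.0259% of HD-SB reads. A circRNA with 1 read was not listed either, so the true limit is higher. Only 5.54% of protein-coding genes without a ZNF name gave a listed circRNA. Lists this short can thus give 0 in any cells, and cell identity was not tested.

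A C2H2 zinc finger is a short fold of the protein around a zinc ion, held by a pair of cysteines and a pair of histidines, and each finger contacts a few bases of DNA. Many ZNF proteins also carry a KRAB box near their start, which recruits the corepressor TRIM28 and through it the machinery of heterochromatin. In these KRAB zinc finger genes the box is encoded by short exons, while a single long last exon encodes the whole row of fingers. Such genes arose by repeated duplication, lie in clusters of which the largest are on chromosome 19, and are known for silencing transposable elements. A circRNA forms when the 3′ end of an exon (a splice donor) is joined back to the 5′ end of the same or an earlier exon (an acceptor).

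A selection of back-splice junctions in coding sequence is shown to make the shared acceptor exon visible, with ZNF398 and ZNF608 for contrast. Each line gives the last 15 bases of the circle in lower case, and then the first 15 bases of its acceptor exon in capitals, 5′ to 3′. The bases are those of GENCODE 29 transcripts (GRCh38) at the exons that the deposited ends matched. CircRNAs of a host are numbered by HD-SB reads, most first.
ZNF398: ggagatatcccaaagACATCTGAATGGGAC
ZNF680 circRNA 1: tagccaaacccccagGGACCACTGACATTT
ZNF93: acagttaataaaaagGGACCATTGCAATTT
ZNF720: tagccatccagccagGGACTGTTGACATTC
ZNF567: gtcatacctgcttggGGATCAGTGTCTTTC
ZNF81 circRNA 2: atcagagctgttcagGTATCAGTGTCATTT
ZNF124 circRNA 3: agaaaccctatgaatAACTCGGTTGCCTTT
ZNF124 circRNA 4: aaaaacgctatgaatAACTCGGTTGCCTTT
ZNF608: atgaaacagaagaagGTTGACCCCCTGTTT
From ZNF680 to ZNF124, the capitals open a coding exon of 127 bases in each host, and ZNF398 and ZNF608 open exons of other lengths. ZNF680 and ZNF93 had 12 of these 15 bases in common, and ZNF680 and ZNF124 had 6.

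The most abundant circRNA came from ZNF81, a KRAB zinc finger gene on the X chromosome (hsa_circ_0006364, chrX:47705504-47755339 as deposited). It had 63 reads in HD-SB, 0.545% of that library (0.419 to 0.696), and was not listed in the control. It ranked at place 17 of the HD-SB list. ZNF124, a KRAB gene on chromosome 1, gave the next (circRNA 1, hsa_circ_0002922, chr1:247318868-247323115), with 34 HD-SB reads, 0.294% (0.204 to 0.410), and none listed in the control. These 2 circRNAs held 41.8% of the 232 HD-SB reads of ZNF hosts, so the group's level rests largely on them.

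The other members had fewer reads, though the interval of ZNF398 (0.0922% to 0.246%) overlaps that of ZNF124 circRNA 1. ZNF398, a KRAB gene on chromosome 7, had 18 HD-SB reads (hsa_circ_0004351, chr7:148851037-148851432), and ZNF680, also a KRAB gene on chromosome 7, had 14 (circRNA 1, hsa_circ_0002566, chr7:64004085-64004810). ZNF609, which encodes a protein without a KRAB box and is a much studied circRNA host, had 11 (hsa_circ_0000615, chr15:64791492-64792365). ZNF215, which joins a SCAN domain to a KRAB box, had 9 and 7 reads on 2 circRNAs, and ZNF142 had 8 (hsa_circ_0007648). ZNF124 also had 7 reads each on circRNA 2 and circRNA 3 (hsa_circ_0005667). Among all of these the control listed ZNF124 circRNA 2 alone, with 3 reads. For 4 of the 25 members, 16.0% (4.54 to 36.1), the table gives several host names, and ZNF124 circRNA 1 is among them (Y_RNA and ZNF124).

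In all, 15 members had between 2 and 5 reads. Those with 5 were ZNF93, which encodes a repressor of LINE-1 retrotransposons, ZNF841, ZNF544 (circRNA 1) and ZNF516, a transcription regulator without a KRAB box. Those with 4 were ZNF81 (circRNA 2), ZNF608, the paralogue of ZNF609, and both circRNAs of ZNF148, a factor that binds GC-rich promoters. ZNF720, ZNF567, ZNF544 (circRNA 2) and ZNF496, a SCAN and KRAB gene, had 3 each. ZNF432, ZNF680 (circRNA 2) and ZNF124 (circRNA 4) had 2. None of these 15 was listed in the control. At these counts the intervals of neighbours in the order overlap, from 0.00209% to 0.0624% for 2 reads and from 0.0140% to 0.101% for 5.

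**Figure D1:**
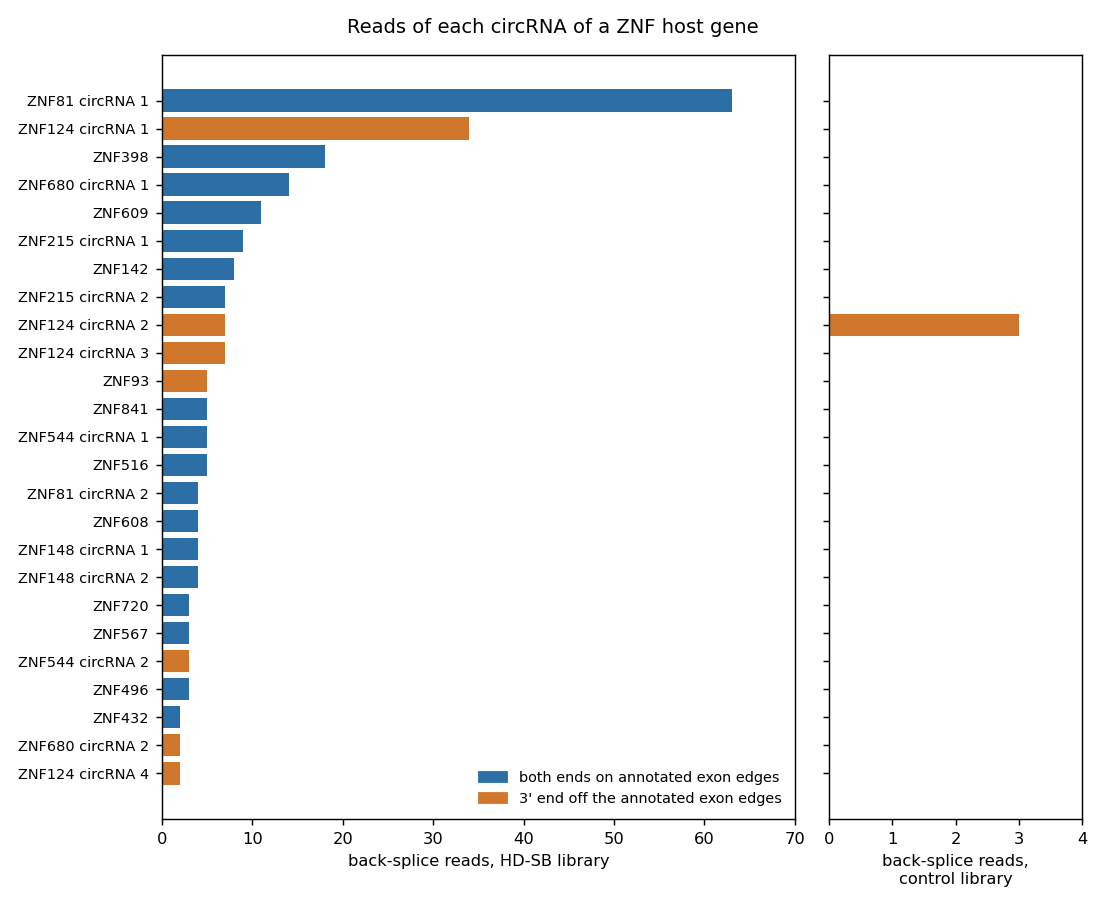
Back-splice reads of the 25 circRNAs of ZNF hosts in the HD-SB library (left axis panel) and the control library (right panel, its own scale), 1 bar per circRNA. Blue bars have both ends on annotated exon edges and orange bars have a 3′ end off them. ZNF81 with 63 and ZNF124 with 34 reads stand above the rest, and the control lists ZNF124 circRNA 2 alone, with 3 reads.

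By role, 12 of the 17 hosts are known KRAB genes, and they gave 19 circRNAs and 196 HD-SB reads, 1.69% of the library (1.47 to 1.95). The 5 hosts without a KRAB box, ZNF609, ZNF608, ZNF142, ZNF148 and ZNF516, gave 6 circRNAs and 36 reads, 0.311% (0.218 to 0.431). The median was 5 reads per circRNA for KRAB hosts and 4.5 for the others, so the larger total goes with more circRNAs and with ZNF81 and ZNF124. Of the 6 hosts with more than 1 circRNA, 5 are KRAB genes, and ZNF124 had the most, 4.

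The number of C2H2 patterns in the coding sequence (C, 2 to 4 residues, C, 12 residues, H, 3 to 5 residues, H) ranged from 0 in ZNF720 to 31 in ZNF142, with a median of 10 per host. KRAB hosts had a median of 12 and at most 20, in ZNF841. ZNF608 and ZNF609 had 1 each. With a stricter pattern (C, 2 residues, C, 12 residues, H, 3 residues, H) the median was 8. ZNF142 then had 14, ZNF841 had the most with 20, and ZNF608 and ZNF609 had 0. The name ZNF thus covers proteins that differ in how many fingers they hold.

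The ends of the circles were compared with the exons of their hosts in GENCODE 29. The deposited positions are not in the build of that annotation, so each span was matched to the distance between the start of an exon and the end of the same or another exon of the host. In 18 of 25 members both ends fell on exon edges to the base, 72.0% (50.6 to 87.9). Each of these 18 matched at only 1 shift between the positions, and 12 of 16 with a matched neighbour had exactly its shift. The neighbour was a circRNA of the same host or, failing that, of another host within 5 Mb. Matches that disagreed within a host were dropped first, so agreement within a host can follow from that step. Of 1405 circRNAs of other hosts, 92.8% (91.3 to 94.1) had both ends on edges.

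All 18 ended before the last exon of the transcript they matched. The 3′ end of a last exon is not a splice donor, so this is given by gene structure. ZNF81 circRNA 1 ran from exon 2 to exon 4 of 5, which come to 440 bases without introns, 163 of them 5′ UTR and 277 coding. ZNF680 circRNA 1 took exons 2 and 3 of 4, 223 coding bases, and ZNF841 took exons 2 to 5 of 6, 414 bases. ZNF432 took exons 2 to 4 of 5, ZNF544 circRNA 1 exons 3 to 5 of 6, ZNF567 exons 4 and 5 of 6, and ZNF720 exons 3 and 4 of 5. In these transcripts, ZNF720 excepted, the last exon that was left out holds C2H2 patterns, from 12 in ZNF81, ZNF680 and ZNF544 to 20 in ZNF841. The matched ZNF720 transcript has none at all. Back-splice reads show the junction alone, and the exon content between the ends was taken from the annotation, not measured.

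Of the 12 KRAB circRNAs with both ends on edges, 0 held a complete C2H2 pattern. Where the patterns lie in the last exon, this follows from circles ending before it. Among hosts without a KRAB box, ZNF516 was different, since its circRNA (hsa_circ_0008699) is the single exon 3 of 1967 bases and holds 8 patterns. ZNF398 (exon 2, 396 bases, all coding), ZNF608 (exon 2, 256 bases, all coding), ZNF142 (exon 3, 314 bases) and ZNF148 circRNA 1 (exon 4, 349 bases) were also single exons, without a complete pattern. ZNF609 spanned 874 bases, from base 2 to base 875 of exon 1 of the transcript used, 127 of them 5′ UTR and 747 coding. Its start is an exon edge of another transcript of the host. Edges were matched over all annotated transcripts of a host, while exon content was read from protein-coding transcripts alone.

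Of the 23 members whose exon content could be read from a transcript, 12 held an exon of 127 bases, from 9 KRAB hosts. ZNF124 circRNA 1 and ZNF680 circRNA 2, which have no such content, also began at this exon. In KRAB genes an exon of this kind is known to encode the A part of the box, which binds TRIM28. Compared base by base without gaps, these 9 exons were 58.3% to 91.3% identical in 36 pairs, with a median of 66.9%. ZNF680 on chromosome 7 and ZNF93 on chromosome 19 were the most alike, with 116 of 127 bases the same, and ZNF124 and ZNF720 the least, with 74. The pairs share ancestry and are not independent.

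In 5 of the 6 hosts with several circRNAs the circles had an end in common. Those of ZNF215 began at the same exon 2 and ended at exon 5 (circRNA 1, chr11:6962802-6977013, hsa_circ_0008338, 9 reads) or at exon 4 (circRNA 2, chr11:6962802-6964872, 7 reads), so the junctions below differ in the lower-case part alone.
ZNF215 circRNA 1: cagatgcctggaaagATATGCCCTGCAAGG
ZNF215 circRNA 2: ggaagactatttttgATATGCCCTGCAAGG
Those of ZNF81 ended at the same exon 4 and began at exon 2 (63 reads) or exon 3 (chrX:47747398-47755339, hsa_circ_0090458, 4 reads). Those of ZNF148 ended at exon 4 and began at exon 2 (chr3:125032152-125050082, hsa_circ_0001333) or exon 4 itself (chr3:125032152-125032500, hsa_circ_0067103), with 4 reads each. The circles of a host thus ranged from equal counts, as in ZNF148, to 63 against 4 in ZNF81.

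**Figure D2:**
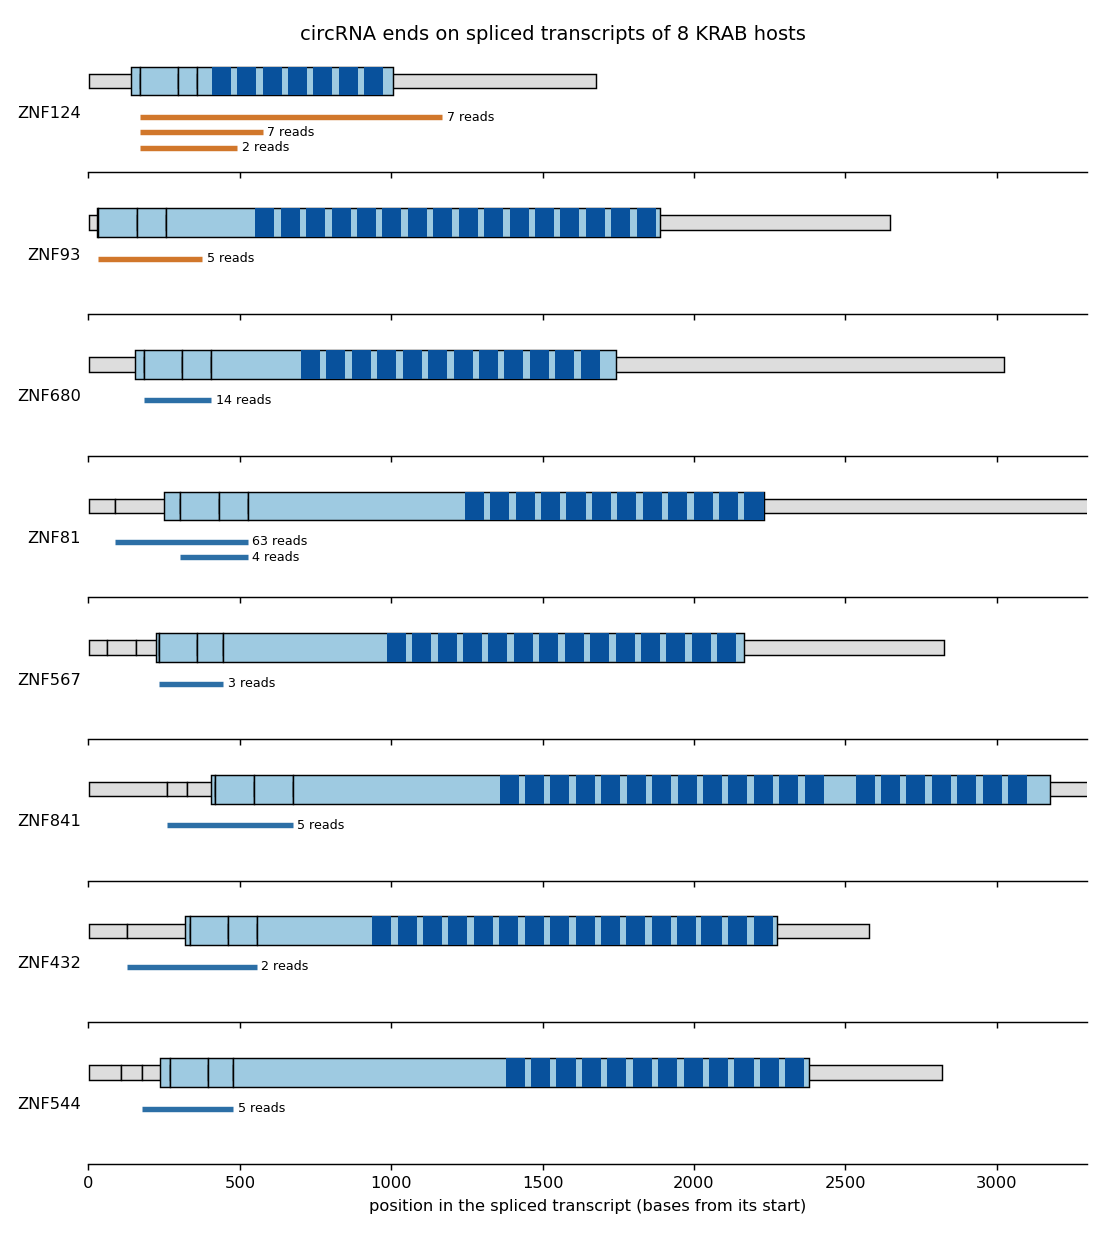
Spliced transcripts of 8 KRAB hosts to scale, in bases from the transcript start. Grey boxes are untranslated and light blue boxes coding sequence, black lines exon borders, and dark blue boxes C2H2 patterns, while ZNF81 and ZNF841 run past the right edge. Bars below are circRNAs with HD-SB reads, blue with both ends on exon edges and orange with a 3′ end off them. Blue bars stop ahead of the last exon and orange bars of ZNF124 and ZNF93 reach into it. ZNF124 circRNA 1, ZNF680 circRNA 2 and ZNF544 circRNA 2 are not drawn, as they end outside the exons of the transcript shown.

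The other 7 members, 28.0% (12.1 to 49.4), had only 1 end on an exon edge. In circRNAs of other hosts this was 56 of 1405, 3.99% (3.02 to 5.14). A further 45 of those 1405, 3.20% (2.35 to 4.26), had no end on an edge, against 0 of 25 members (0% to 13.7%). The 7 came from 4 hosts, all KRAB genes, and held 60 HD-SB reads. The 4 of ZNF124 share an end, so they are not independent, and with 1 circRNA per host the share was 11.8% (1.46 to 36.4). This interval overlaps the 3.02% to 5.14% of other hosts, which however counts every circRNA and was not reduced to 1 per host. In all 7 the 5′ end was on an edge and the 3′ end was off it, while in the 56 of other hosts the 3′ end was off in 28.

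ZNF124 accounts for 4 of the 7. Its circRNAs shared the 5′ edge of exon 2, the 127-base exon, and had 4 different 3′ ends. Circle 2 ended 812 bases into exon 4, the last exon, 163 bases past the stop codon. Circles 3 and 4 ended 218 and 134 bases into it, inside the row of fingers. Circle 1, the most abundant, ended 335 bases past the annotated end of exon 4 of this transcript (ZNF124-201). The shift used for ZNF124 was that of ZNF496, 148.7 kb away, since no span of its own matched a pair of edges, and it put the shared 5′ end on the exon 2 edge.

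ZNF93 (chr19:20026089-20044111), also placed by the shift of a neighbouring host, began at the edge of exon 2 and ended 121 bases into its last exon, ahead of the fingers, with 5 HD-SB reads and no circBase identifier. ZNF680 circRNA 2 began at the same exon 2 edge as circRNA 1 and ended 1977 bases into the intron after exon 3, with 2 reads. ZNF544 circRNA 2 began at the edge of its last exon and ended 2826 bases into it, 925 bases past the stop codon, with 3 reads. Its span also equalled a distance between other ZNF544 exon edges, at a shift that disagreed with that of circRNA 1, and counting it as on edges would leave 24.0% of members with an end off them.

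In all, 5 of the 3′ ends lay inside a last exon, and the bases that follow them can be read from the transcripts. In all 5 of 5 (100%, 47.8 to 100) the next bases were GT, the pair with which nearly all introns begin. Circles 2, 3 and 4 of ZNF124 are among these 5 and are not independent. In other hosts it was 12 of 15 ends inside an exon, 80.0% (51.9 to 95.7), and 10 of those 15 were in a last exon. For scale, GT stood at 4.81% of positions in the last exon of ZNF93, 5.02% in ZNF124 and 5.86% in ZNF544. The ZNF544 value is for the last exon of transcript ZNF544-206, whereas circRNA 2 was placed on ZNF544-201, whose last exon is longer. The circRNA caller is not known and may have kept only junctions with such bases. GT may thus be a condition of being listed, which was not tested. The 3 ends in coding sequence are shown with the last 20 bases of the circle and the 10 that follow it in the transcript, and the capitals mark the GT right after the end.
ZNF124 circRNA 3: tggagagaaaccctatgaatGTaagcactg
ZNF124 circRNA 4: tggagaaaaacgctatgaatGTaagcaatg
ZNF93: aatttacagttaataaaaagGTgtgaaagt
The ZNF124 ends are 84 bases apart, which is the length of 1 finger repeat in this gene. Each ends on the first base of a cysteine codon (tgt) that opens a C2H2 pattern, pattern 3 for circRNA 3 and pattern 2 for circRNA 4. The capital GT is the rest of that codon. Circle 3 thus holds 2 complete patterns, circle 4 holds 1, circle 2 all 7 of exon 4, and ZNF93 none.

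The letters GTAAG, which follow the ends of ZNF124 circRNAs 3 and 4 but not that of ZNF93, were searched on the transcript strand of the last exons. Their match at the ends of circRNAs 3 and 4 was thus fixed in advance, and the comparison with other hosts is no test. They stood at the opening cysteine codon of 3 of the 7 patterns in exon 4 of ZNF124, 2 of which are the ends of circRNAs 3 and 4. In the 10 other hosts with patterns in the last exon, 0 had GTAAG at such a codon. Anywhere in the last exon GTAAG was found in 12 of 17 hosts, with 5 copies in ZNF124 (1317 bases) and 6 in ZNF148 (8379 bases). The match describes letters and does not show that a site is used.

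Of the 7 members with a 3′ end off an edge, 5 had no circBase identifier, the exceptions being ZNF124 circRNAs 1 and 3. Of the 18 on edges, 2 had none, ZNF215 circRNA 2 and ZNF496. In all, 18 members (72.0%, 50.6 to 87.9) were catalogued, against 75.7% (73.4 to 77.9) of 1460 circRNAs of other hosts, intervals that overlap. By reads, catalogued members held 87.5% of HD-SB reads of ZNF hosts (82.5 to 91.5), and catalogued circRNAs of other hosts 83.6% (82.9 to 84.3).

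Members lay on 11 chromosomes. Chromosome 19 held 6 of 25, 24.0% (9.36 to 45.1), against 6.30% (5.11 to 7.67) of circRNAs of other hosts. The hosts were ZNF93, ZNF567, ZNF432, ZNF841 and ZNF544, 5 of 17 or 29.4% (10.3 to 56.0). By reads chromosome 19 was smaller, with 23 of 232 HD-SB reads, 9.91% (6.39 to 14.5), against 7.74% (7.25 to 8.24) in other hosts, and ZNF81 and ZNF124 lie on other chromosomes. Chromosome 1 held 5 members, 4 of ZNF124 and 1 of ZNF496.

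**Figure D3:**
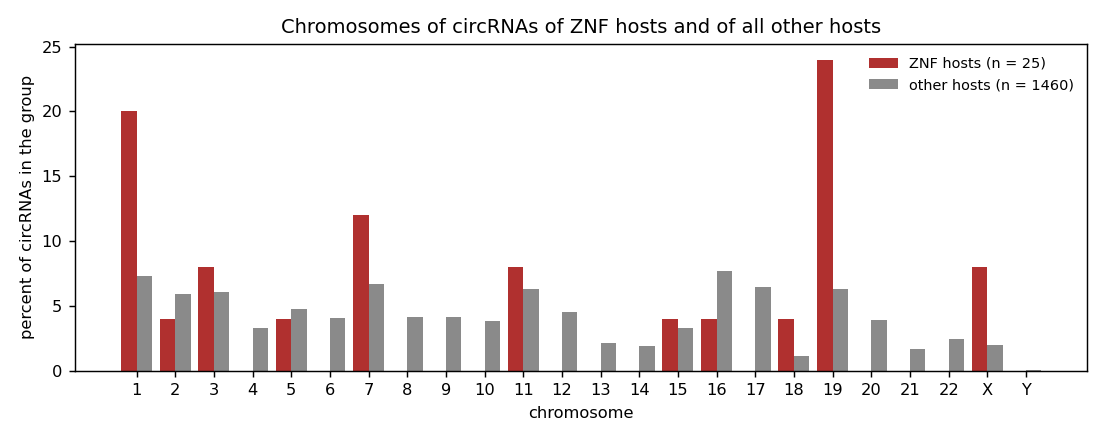
Percent of circRNAs on each chromosome for ZNF hosts (red, n = 25) and for all other hosts (grey, n = 1460). Chromosome 19 holds 24.0% of the red group and 6.30% of the grey one, and 5 of the red circRNAs are on chromosome 1.

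In RefSeq (GRCh38.p14), 250 of 517 protein-coding ZNF genes, 48.4% (44.0 to 52.8), lie on chromosome 19, a share inside the interval of the hosts. Of those 250 genes, 5 gave a listed circRNA, 2.0% (0.653 to 4.61), and of 267 elsewhere 11 did, 4.12% (2.07 to 7.25), with intervals that overlap. Of all 517, 16 gave a circRNA, 3.09% (1.78 to 4.98), against 5.54% (5.22 to 5.87) of 19516 other protein-coding genes. ZNF720 was not matched among RefSeq protein-coding genes and is left out of these counts. Gene expression was not measured, so hosts that are silent in SW620 are included.

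The chromosome 19 hosts sat inside clusters. Of the 10 nearest protein-coding genes in RefSeq, ZNF567 had 10 with a ZNF name, ZNF841 and ZNF432 had 9 each, ZNF93 had 8 and ZNF544 had 5. ZNF432 and ZNF841 were among each other's nearest. Clusters were seen on other chromosomes too, with 9 ZNF neighbours for ZNF680 and 7 for ZNF398 on chromosome 7, and 4 each for ZNF124 and ZNF496, which are neighbours on chromosome 1. ZNF81 and ZNF516 had 2 each and ZNF215 had 1. ZNF609, ZNF608, ZNF142 and ZNF148 had 0.

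The span on the genome, introns included, had a median of 2730 bp in members, with a 95% interval of the median (from order statistics) of 874 to 4248. In other hosts the median was 4242 bp (3771 to 4917), so the intervals overlap. The shortest were ZNF608 (256 bp), ZNF142 (314 bp), ZNF148 circRNA 1 (349 bp) and ZNF398 (396 bp), all single exons, of which only ZNF398 is a KRAB gene. The longest were ZNF81 circRNA 1 (49836 bp), ZNF93 (18023 bp), ZNF148 circRNA 2 (17931 bp) and ZNF215 circRNA 1 (14212 bp). Spans under 1000 bp made up 32.0% of members (14.9 to 53.5) and 18.2% of other circRNAs (16.2 to 20.2). By the annotation a long span need not mean a long circle, since ZNF81 circRNA 1 comes to 440 bases if all introns are removed. The length of the circles was not measured.

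**Figure D4:**
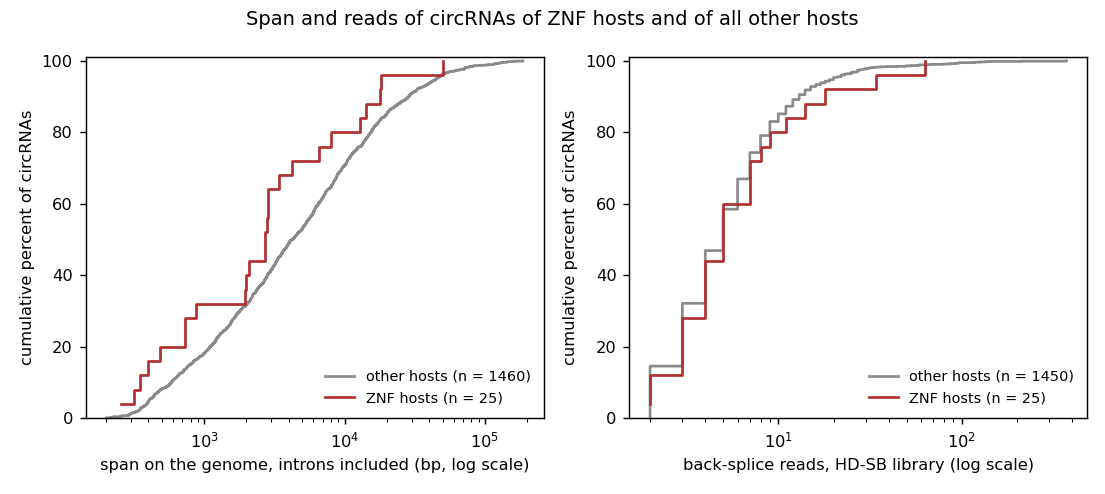
Cumulative percent of circRNAs by span on the genome in bp (left, log scale) and by HD-SB back-splice reads (right, log scale) for ZNF hosts (red) and all other hosts (grey). The red span curve lies to the left over most of its range, with medians of 2730 and 4242 bp, and both read curves have a median of 5.

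ZNF hosts held 1.68% of the circRNAs of the table (1.09 to 2.48) and 2.01% of HD-SB reads (1.76 to 2.28). The median was 5 HD-SB reads per circRNA (4 to 7) in members and 5 (5 to 5) in other hosts. At least 10 reads were seen for 20.0% of members (6.83 to 40.7) and 16.8% of other circRNAs (14.96 to 18.9). In these measures ZNF circRNAs lay within the range of the rest.

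In the control library, ZNF hosts had 3 of 91 reads, 3.30% (0.685 to 9.33), an interval that takes in the HD-SB share. The ratio of control to HD-SB shares was 1.64 (0.337 to 4.86), so no difference was detectable at this depth. All 3 reads were on ZNF124 circRNA 2 (chr1:247319708-247323115, no circBase identifier), the circle that ends in the 3′ UTR. The control thus listed 1 of 25 members, 4.0%, against 2.15% of all circRNAs. The other 24 members were listed in HD-SB only. By the limit of 3 reads, a control count of 0 allows each up to 3.30% of control reads. Members not listed could also have 1 control read, so the true limit is higher.

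ZNF124 circRNA 2 had 3 control reads (3.30%, 0.685 to 9.33) and 7 HD-SB reads (0.0605%, 0.0243 to 0.125), a ratio of 54.5 (9.09 to 239). Over the reads of circRNAs listed in both libraries the ratio was 4.01 (0.669 to 17.6), and under median-ratio scaling it was 2.21 (0.369 to 9.70), both with intervals that take in 1. All 4 circRNAs of ZNF124 together had 3 and 50 reads, a ratio of 7.63 (1.52 to 23.6). Because a circRNA needed 2 control reads to be listed, listed circRNAs lean towards a larger control share, and these ratios compare the libraries and not the conditions. Within ZNF124, all 3 listed control reads were on circRNA 2, while in HD-SB it had 7 of the 50 reads, 14% (5.82 to 26.7). With 1 unlisted control read allowed for each of the 3 other circRNAs the control share was 50.0% (11.8 to 88.2), which overlaps that of HD-SB.

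A rule of size was applied to the whole table, at least 2-fold on log2(CPM + 172.861) over 797 circRNAs whose mean was at or above 216 CPM (reads per 1000000 back-splice reads). Of the 14 members that passed this filter 13 were past 2-fold higher in HD-SB, 92.9%, beside 96.0% of all, and 1, ZNF124 circRNA 2, was past 2-fold lower, beside 4.02% of all. The 13 were listed in HD-SB only. Over the whole table, all 32 circRNAs listed in the control were past 2-fold lower and the other 765 past 2-fold higher, so these counts restate the listing and nothing is read from them. With 0.5 read of each library as the pseudocount, 0 members were past 2-fold higher and 12 past 2-fold lower, and among circRNAs in both libraries 0 were higher. The median log2 ratio was 2.25 in the 14 members and 2.17 over all 797, values that depend on the listing in the same way.

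Lists of related genes gave fewer reads each. Other zinc finger names (ZKSCAN, ZBTB, ZC3H, ZCCHC and the like) gave 21 circRNAs from 18 hosts, with 125 HD-SB reads, 1.08% (0.900 to 1.29), and 5 control reads. ZKSCAN1, a widely studied circRNA host, led with 33 HD-SB and 3 control reads, followed by ZBTB7A with 8 and 0. Of 63 other C2H2 factors 5 gave 1 circRNA each and 29 reads, with 7 each for ZFX and BCL11B and none listed in the control. Of 23 genes of the KRAB corepressor and the silencing that follows it, 5 gave 7 circRNAs and 45 reads, 0.389% (0.284 to 0.520), led by the DNA methyltransferase DNMT3B with 13 and UHRF1 with 9. TRIM28, SETDB1 and the HP1 genes CBX1, CBX3 and CBX5 gave none listed in either library.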

How the data were processed

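The deposited table gives, for each circRNA, its position, circBase identifier, host names and 1 value per library. The values are headed TPM per the file headers, but behave as CPM, counts per 1000000 listed back-splice reads as deposited by the authors. All listed values (100%) were whole multiples, within 0.01, of a step of 86.4 CPM for HD-SB and 10989 CPM for the control, taken as 1 read. The value 0.001 was taken as not listed. The submitters' processing notes list FastQC, HISAT2 2.1.0 and GRCh38, with no role. The circRNA caller is not given in the sources used here. Libraries are single, so p-values were not computed.

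The members and lists were chosen with earlier results of these data known. All members are described. Named with values were ZNF124, members listed in the control, the 12 most abundant with ties, hosts with 2 or more circRNAs, the 4 longest and 4 shortest spans, the 4 most abundant without a circBase identifier, members on chromosome 19, and the 2 most abundant of each list. Positions are printed as deposited, and their genome build was not established. Ends were matched to GENCODE 29 exons by span, or, failing that, with the shift of a circRNA of the same host or of the nearest other host within 5 Mb. If circRNAs of a host gave shifts over 10 bases apart, the one nearer to the neighbouring host's was kept. Transcripts were the protein-coding ones that fit most ends. C2H2 patterns were counted on translated GENCODE coding sequences. KRAB membership is background knowledge. The matching was tested on simulated data with 1 constant shift per chromosome. Borrowing the shift of a neighbour where shifts vary along a chromosome was therefore not tested. Python 3.11.15, SciPy 1.17.1 and pandas 2.3.3 were used. Alternatives were name rules, read minimum, 1 circRNA per host, pseudocounts, filters and scaling. Those on exon ends, the summed ZNF124 reads and leaving out the top member were chosen after seeing the data.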

Additional observations from a re-analysis of the deposited data

How the results depend on the processing

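Of 64 alternative values for 12 results, 48 stayed within the interval of the main value or within 1.5 times of a count. The share of HD-SB reads, 2.01%, was 1.73% with single host names, 2.54% with ZKSCAN, ZSCAN, ZBTB and ZFP names added and 1.47% without ZNF81 circRNA 1. With 1 circRNA per host, the control share became 0%, as the listed ZNF124 circle is not its most abundant, the circBase share 88.2% and the share with an end off the exon edges 11.8%. With at least 5 HD-SB reads the median was 7.5 reads, by construction. The ZNF124 ratio of 54.5 was 4.01 (0.669 to 17.6) over reads of circRNAs in both libraries, 2.21 (0.369 to 9.70) under median-ratio scaling, both with intervals that take in 1, and 7.63 with its circRNAs summed. The 13 members past 2-fold higher were 24 when no filter was applied, 7 when the filter was the 75th percentile of means, 6 when the pseudocount was raised 4 times, and 0 with 0.5 read as pseudocount or among circRNAs in both libraries. The 1 past 2-fold lower became 12 with 0.5 read, which is worth more CPM in the control. No paired analysis was possible because there is a single library in either group. Depth in the control, 91 reads, bounds all that is said of its level.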
